A study of Mus musculus with 16 samples.

Results

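Loss of p53 was examined in T cell acute lymphoblastic leukaemias (T-ALL) that were induced by ICN and carried wild-type Miz1. The comparison set 2 mice labelled p53 ko against 2 mice labelled p53 wt, chosen by the ending of their titles and by their labelled Miz1 and p53 status, 4 of the 16 mice in the series. ICN is the intracellular, constantly active part of Notch. All mice were labelled C57Bl6, and leukaemia RNA of each was sequenced as poly(A)-selected, stranded libraries. The series text calls the p53-ko mice p53 null. The other 12 mice formed 6 groups of 2: ICN leukaemias whose Miz1 lacks its POZ domain (deltaPOZ) with p53 wt or p53 ko, each with the title suffix Lck or Vav, and p53-ko leukaemias without ICN with Miz1 wt or with deltaPOZ and the suffix Vav. The labels do not explain the suffixes, name the p53 allele, or give the organ, sex, age or batch of a mouse.

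p53, encoded by Trp53, is a transcription factor that is held at a low level by the ubiquitin ligase Mdm2 and stabilised by DNA damage and oncogenic signals, after which it drives genes of cell cycle arrest, cell death and repair. The Arf protein of the Cdkn2a locus is the link from oncogenes to p53: it binds Mdm2 and frees p53, and p53 in turn restrains the locus. In T-ALL, activating Notch mutations and loss of CDKN2A are frequent, and Miz1 (Zbtb17) is a partner of Myc that uses its POZ domain to hold on to chromatin.

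The 4 libraries held 36463524 to 57366409 counts in genes, and 17470 genes were tested. Levels are given as normalised CPM, counts scaled to the size of each library, fold changes as log2 of p53 ko over p53 wt with their standard error, and calls at an adjusted p under 0.05 in edgeR's quasi-likelihood test, with the spread estimated over all 16 mice. Similarity between libraries did not follow p53 status throughout: Spearman correlations over genes were 0.972 between the p53-wt mice and 0.953 between the p53-ko mice, while p53-ko mouse 2 and p53-wt mouse 2 reached 0.978. In p53-ko mouse 1, 63.7% of alignments were not unique, against 48.2% to 49.1% in the other 3 libraries. The defining markers of T cells were present in all 4 libraries, with Cd3e at 97.6 and 89.4 CPM in the p53-wt mice and 93 and 112 CPM in the p53-ko mice.

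Trp53 (ENSMUSG00000059552, GRCm38 chromosome 11, 69580359 to 69591873) was measured at 70.2 and 86.7 CPM in the p53-wt mice and 14 and 29.6 CPM in the p53-ko mice. Both p53-ko mice lay below both p53-wt mice, and reads of the gene were still counted in each. The counts are summed over the gene, so the exons they came from are not shown. The log2 fold change was -1.85 ± 0.41 (standard error), which did not pass the test with 2 mice a side (edgeR adjusted p = 0.713) and did in DESeq2 (0.00802). In the deltaPOZ leukaemias, compared the same way with 4 mice a side, Trp53 fell by 2.17 on the log2 scale (adjusted p = 0.0425). Over all 16 mice the 10 p53-ko libraries held 7.32 to 30.6 CPM (median 18.5) and the 6 p53-wt libraries 70.2 to 113 CPM (median 92.8), with no overlap.

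Across all genes, 1 of 17470 (0.00572%) was called between the p53 genotypes of the Miz1 wild-type leukaemias, and it rose. Before adjustment, 964 genes (5.52%) had p under 0.05, 500 higher and 464 lower in p53 ko. DESeq2 called 137 genes, 47 of them immunoglobulin segments, and edgeR with no filter on low counts called 601. Both p53-ko mice lay above both p53-wt mice for 2646 genes (15.1%) and below for 2765 (15.8%). An exact permutation test of 2 mice against 2 cannot give a two-sided p below 0.33, so such an order of 4 mice is a description. In the deltaPOZ leukaemias 6 genes (0.0343%) were called, 5 higher and 1 lower. The test of the difference between both p53 contrasts called 0 genes (0.0%), while 454 (2.6%) had p under 0.05 before adjustment and DESeq2 called 29, among them 19 immunoglobulin segments.

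Cdkn2a (ENSMUSG00000044303, chromosome 4, 89274471 to 89294653), which encodes the CDK4/6 inhibitor p16Ink4a and the Mdm2 inhibitor p19Arf in separate reading frames, had the lowest p of the protein-coding genes with a mean log2 CPM of at least 0. It was measured at 0.97 and 1.45 CPM in the p53-wt mice and 35.7 and 48.2 CPM in the p53-ko mice. Both p53-ko leukaemias were high and both p53-wt leukaemias low, a fold of 34.6 in the fit. The log2 fold change of 5.11 ± 0.74 did not pass (edgeR adjusted p = 0.128), while DESeq2 called it (adjusted p = 2.98e-11). In the deltaPOZ leukaemias the gene rose (log2 fold change 6.16 ± 0.55, adjusted p = 0.00169), from 0.355 to 1.53 CPM in 4 mice to 22.6 to 78.8 CPM in 4 mice. The 4 p53-ko leukaemias without ICN held 38.9 to 148 CPM, so that all 10 p53-ko libraries lay above all 6 p53-wt libraries. The counts do not part the p16Ink4a and p19Arf transcripts.

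Most CDK inhibitors, proteins that block the kinases of the cell cycle, had the same order. Of 7 tested, 5 (Cdkn2a included) had both p53-ko mice above both p53-wt mice and 0 had them below, against 15.1% and 15.8% of all genes. Cdkn1b and Cdkn2d overlapped between the genotypes. Of the 7, 0 were called by edgeR, 4 had an unadjusted p under 0.05, and Cdkn2a was the only 1 that DESeq2 called. Cdkn2b, the neighbour of Cdkn2a that encodes p15Ink4b, was at 0.446 and 0.275 CPM in the p53-wt mice and 1.9 and 1.49 CPM in the p53-ko mice (log2 fold change 2.23 ± 0.79). Cdkn2c, which encodes p18Ink4c, was at 117 and 123 CPM in the p53-wt mice and 197 and 214 CPM in the p53-ko mice (log2 fold change 0.77 ± 0.21), a smaller difference at a narrow spread. Cdkn1c, which encodes p57, was at 0.349 and 0.403 CPM in the p53-wt mice and 0.811 and 1.33 CPM in the p53-ko mice. Cdkn1a, which encodes p21 and is the best known arrest target of p53, was not lower without p53: it was at 0.699 and 1.17 CPM in the p53-wt mice and 1.93 and 9.01 CPM in the p53-ko mice. Its log2 fold change of 2.55 ± 1.05 came with a wide gap between the p53-ko mice and did not pass (adjusted p = 0.866). In the deltaPOZ leukaemias it was 0.13 ± 0.72.

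**Figure D1:**
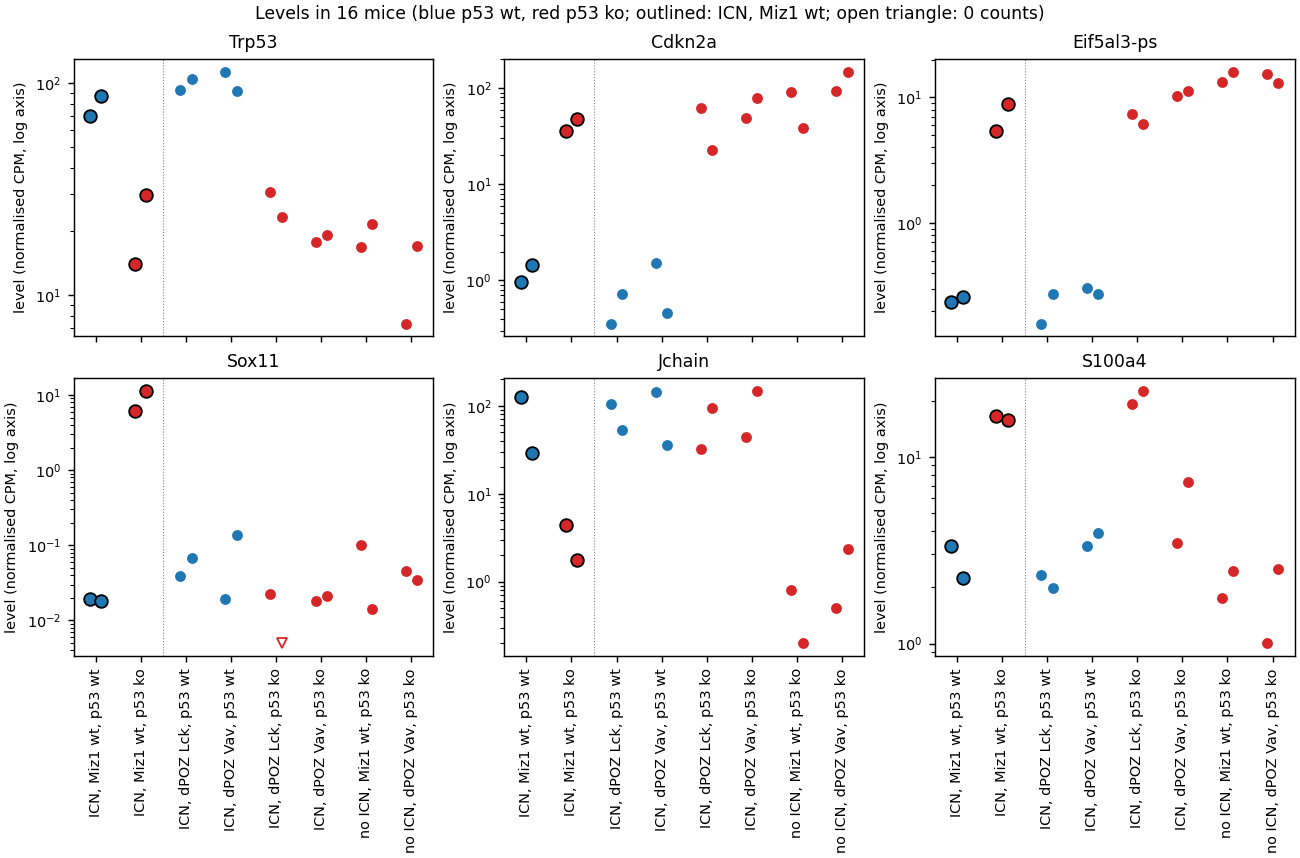
Levels of 6 genes in all 16 mice in normalised CPM on a log axis, 1 point per mouse and 2 mice per group; the outlined points at the left are the ICN leukaemias with wild-type Miz1. Cdkn2a and Eif5al3-ps are high in all 10 p53-ko mice, Sox11 is high in the 2 p53-ko mice with ICN and Miz1 wt, and Jchain is low in those 2 and in the 4 mice without ICN.

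The called gene was Eif5al3-ps, a processed pseudogene (ENSMUSG00000043618, chromosome 5, 90132229 to 90132675) that copies Eif5a, the translation factor that carries hypusine. It was at 0.233 and 0.256 CPM in the p53-wt mice and 5.42 and 8.93 CPM in the p53-ko mice, a log2 fold change of 4.86 ± 0.43 (edgeR adjusted p = 0.00313; 26 against 644 counts). In the deltaPOZ leukaemias it rose alike (5.09 ± 0.31, adjusted p = 5.26e-05), and the 4 p53-ko leukaemias without ICN held 13 to 16 CPM, against 0.158 to 0.306 CPM in all 6 p53-wt libraries. Eif5a itself, whose start lies 336 kb from the start of Trp53 on chromosome 11, was at 563 and 542 CPM in the p53-wt mice and 467 and 621 CPM in the p53-ko mice (log2 fold change -0.02 ± 0.24). Without p53-wt mouse 1 the adjusted p was 0.119, without p53-wt mouse 2 it was 0.200, and in a fit of the 4 libraries alone 0.572, with log2 fold changes of 4.76, 4.9 and 4.85.

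Gm6685, Gm12070 and Hmgb1-ps3, among the 6 features called in the deltaPOZ leukaemias, are also copies of other genes, and their levels in the Miz1 wild-type leukaemias followed the same order without passing in edgeR. DESeq2 called all 3 (adjusted p 0.000895, 1.71e-05 and 0.0188). Gm6685 (chromosome 11, 28339104 to 28339867, annotated as protein coding) matches Cyb5d1, which lies 188 kb from Trp53. It was at 0.194 and 0.385 CPM in the p53-wt mice and 1.62 and 1.35 CPM in the p53-ko mice (log2 fold change 2.35, adjusted p = 0.619), while Cyb5d1 had 0.11. Gm12070, a Gapdh pseudogene on chromosome 11 that is identical to the Gapdh transcript at 99.9% of its 1002 bases, was at 0.349 and 0.128 CPM in the p53-wt mice and 2.15 and 3.63 CPM in the p53-ko mice (log2 fold change 3.59, adjusted p = 0.406). Hmgb1-ps3, a Hmgb1 pseudogene on chromosome 11 at 5.73 Mb from Trp53, was at 0.854 and 0.843 CPM in the p53-wt mice and 3.33 and 3.53 CPM in the p53-ko mice (log2 fold change 2.01, adjusted p = 0.75). The parent genes Gapdh and Hmgb1 had log2 fold changes of 0.26 and -0.08. Reads that match a copy and its parent alike may have been dropped or placed on either, so the counts of these copies are uncertain. Cyb5d1 also overlaps Naa38, Gapdh overlaps Iffo1 and Hmgb1 overlaps Uspl1 on the opposite strand. These features and their parents were named after their values were seen.

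The letters by which a copy can be told from its parent are shown for the called pseudogene and for Gm6685, as stretches of 120 bases of the reference (GRCm38, GENCODE M21 transcripts) read 5′ to 3′ on the coding strand, with the bases that differ in capitals. The compared stretches end at the last matching base, so bases that differ beyond it are not counted. Over the 444 coding bases compared between Eif5al3-ps, which is 447 bases long, and Eif5a, 20 differed (95.5% identity). Of these, 8 are in the stretch shown, coding bases 198 to 317 of Eif5a. Over 684 bases Gm6685 and Cyb5d1 differed at 5 (99.3% identity), 3 of them in the stretch shown, coding bases 184 to 303 of Cyb5d1.
Eif5al3-ps: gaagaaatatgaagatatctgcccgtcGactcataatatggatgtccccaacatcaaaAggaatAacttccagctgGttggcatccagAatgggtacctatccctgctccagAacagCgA
Eif5a: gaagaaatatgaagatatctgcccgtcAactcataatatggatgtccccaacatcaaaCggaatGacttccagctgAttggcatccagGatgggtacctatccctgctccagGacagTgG
Gm6685: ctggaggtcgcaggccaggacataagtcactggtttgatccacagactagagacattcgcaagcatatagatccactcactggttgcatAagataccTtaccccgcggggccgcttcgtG
Cyb5d1: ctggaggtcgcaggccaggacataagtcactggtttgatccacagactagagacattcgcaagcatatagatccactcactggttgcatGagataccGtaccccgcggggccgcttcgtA

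Around the targeted locus, 162 tested genes started within 5 Mb of the start of Trp53. Of these 0 were called by edgeR, 2 by DESeq2 (Trp53 and Rap1gap2) and 7 (4.32%) had an unadjusted p under 0.05; 30 (18.5%) had both p53-ko mice above and 26 (16%) had them below, and the median log2 fold change was -0.01, beside 0.03 over all genes. In the deltaPOZ leukaemias Trp53 was the gene called in that window. The largest difference among the 7 was that of Ybx2, a germ cell RNA-binding protein, named after its values were seen. It was at 1.44 and 0.696 CPM in the p53-wt mice and 0.028 and 0.119 CPM in the p53-ko mice (log2 fold change -3.75 ± 1.04, adjusted p = 0.75; deltaPOZ -3.88). Rap1gap2, a GTPase activator for Rap1 at 4.8 Mb, was at 7.37 and 2.97 CPM in the p53-wt mice and 31.7 and 23.1 CPM in the p53-ko mice.

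**Figure D2:**
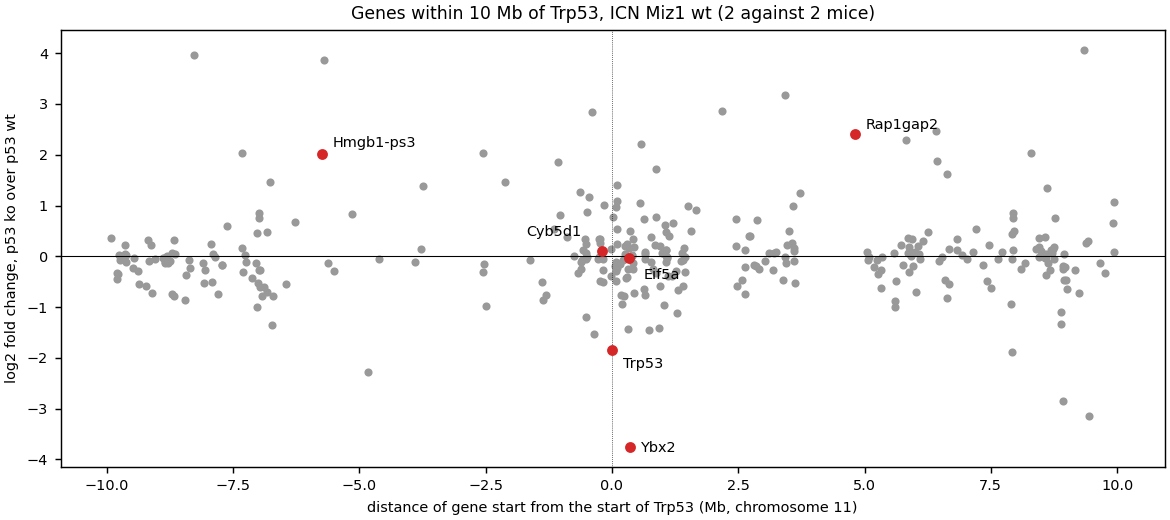
Log2 fold change (p53 ko over p53 wt, 2 against 2 mice) of the 343 tested genes that start within 10 Mb of Trp53 on chromosome 11, against the distance of their start in Mb. Most lie near 0; Trp53 is at -1.85, Ybx2 at -3.75, and Eif5a and Cyb5d1, the parents of 2 copies named in the text, are at -0.02 and 0.11.

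The p53 target genes as a list did not separate the genotypes. All 54 were tested; edgeR called 0 of them, 5 had an unadjusted p under 0.05 (all higher in p53 ko) and DESeq2 called 1, Casp1. Both p53-ko mice lay above for 11 (20.4%) and below for 9 (16.7%), near the 15.1% and 15.8% of all genes, and the median log2 fold change was 0.08 (deltaPOZ 0.01). Leaving out 1 mouse gave medians of -0.02 to 0.16. The counts by role that follow stand beside these same shares of all genes.

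Among arrest genes, 4 of 12 lay above in both p53-ko mice and 1 lay below. The 1 below was Zmat3, an RNA-binding splicing regulator that p53 induces: 28.6 and 20.7 CPM in the p53-wt mice and 5.34 and 12.4 CPM in the p53-ko mice (log2 fold change -1.47 ± 0.96, adjusted p = 0.999; deltaPOZ -1.94 ± 0.69). Over the series Zmat3 held 15.1 to 33.9 CPM in 6 p53-wt mice and 0.45 to 12.4 CPM in 10 p53-ko mice, with no overlap. Sfn, the 14-3-3 sigma arrest protein, was on the other side, at 5.38 and 4.76 CPM in the p53-wt mice and 12.1 and 9.43 CPM in the p53-ko mice (log2 fold change 1.08 ± 0.37; deltaPOZ 1.33 ± 0.26). Over the series Sfn too had no overlap, at 3.25 to 5.38 CPM in 6 p53-wt mice and 7.14 to 14.4 CPM in 10 p53-ko mice. Plk2, a polo-like kinase, was at 0.893 and 0.458 CPM in the p53-wt mice and 3.69 and 1.43 CPM in the p53-ko mice (log2 fold change 1.92 ± 0.69).

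Among 15 cell death genes 1 lay above and 2 below. Casp1, the inflammatory caspase, was at 4.72 and 2.22 CPM in the p53-wt mice and 11.9 and 10.4 CPM in the p53-ko mice (log2 fold change 1.69 ± 0.47, adjusted p = 0.75) and is also a gene of myeloid cells, whose markers are given further on. Bax, the mitochondrial death effector, named after its values were seen, overlapped between the genotypes at 39.7 and 57.1 CPM in the p53-wt mice and 24.3 and 49.1 CPM in the p53-ko mice. Of 9 repair genes 0 lay above and 4 below (Ddb2, Xpc, Rrm2b and Mgmt). Xpc, the damage sensor of nucleotide excision repair, was at 56.2 and 51.4 CPM in the p53-wt mice and 38.1 and 38.2 CPM in the p53-ko mice (log2 fold change -0.50 ± 0.23). Rrm2b, the p53-inducible ribonucleotide reductase subunit, had -0.43 ± 0.33, and Mgmt, which repairs alkylated guanine, had -1.01 ± 0.51.

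Of 14 metabolism and autophagy genes 5 lay above and 2 below. Dram1, a lysosomal autophagy protein, was at 1.77 and 0.879 CPM in the p53-wt mice and 6.26 and 3.0 CPM in the p53-ko mice (log2 fold change 1.80 ± 0.60). Pltp, the phospholipid transfer protein, was at 3.65 and 3.22 CPM in the p53-wt mice and 9.56 and 4.23 CPM in the p53-ko mice. Sco2, a copper chaperone of cytochrome oxidase, lay below at 5.03 and 6.08 CPM in the p53-wt mice and 1.93 and 4.8 CPM in the p53-ko mice. Pltp overlaps Ctsa, and Sco2 overlaps Ncaph2, on the opposite strand. Among 4 feedback genes 1 lay above. Mdm2, named after its values were seen, showed no separation, at 107 and 117 CPM in the p53-wt mice and 123 and 112 CPM in the p53-ko mice (log2 fold change 0.06 ± 0.22, deltaPOZ 0.06 ± 0.16).

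**Figure D3:**
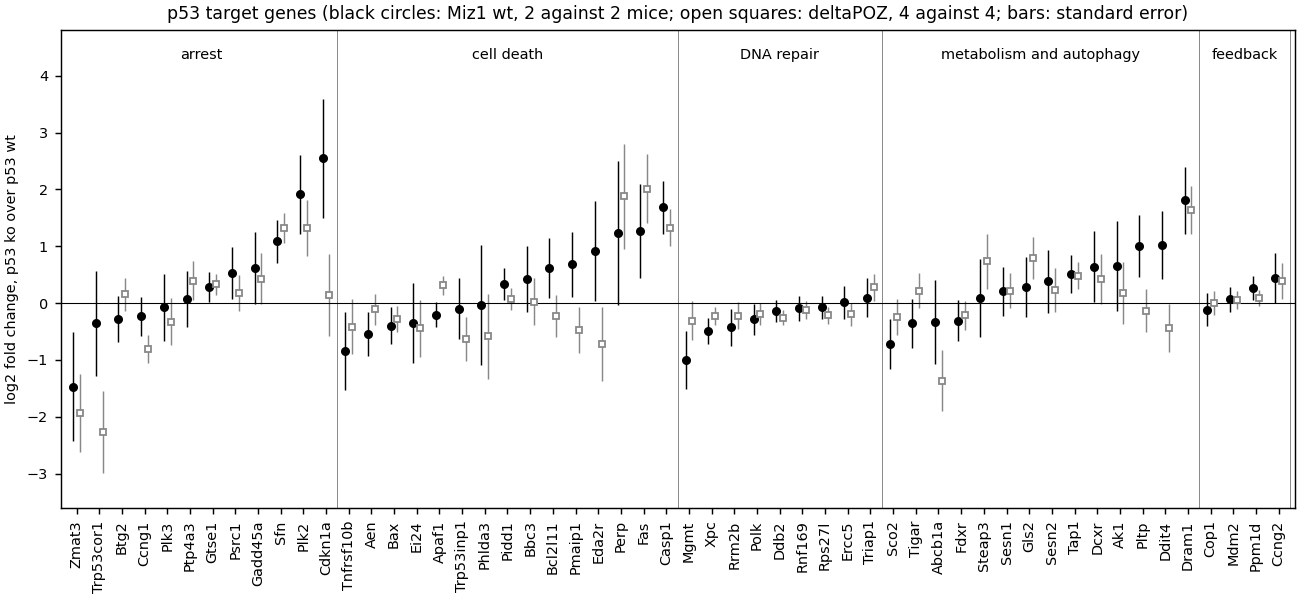
Log2 fold change (p53 ko over p53 wt) with standard error of 54 p53 target genes, grouped by role and ordered within a role by the Miz1 wild-type value; filled circles are Miz1 wt (2 against 2 mice) and open squares deltaPOZ (4 against 4). Values lie on both sides of 0 in each role; Zmat3 is the lowest at -1.47 and Cdkn1a the highest at 2.55 in Miz1 wt.

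The promoters of the targets were searched for the p53 decamer motif, a palindromic pattern of 10 bases that reads the same on both strands, in windows from 250 bases before to 50 bases after annotated starts (RefSeq, GRCm38.p6). The motif was in 13 of 60 target windows (21.7%), which belong to 43 of the 54 genes, against 8.36% of all 32851 windows. Of the target genes lying below in both p53-ko mice, 3 of 7 windows held it, and of those lying above, 3 of 16. Some genes have several windows: by gene, 2 of 5 lying below and 3 of 11 lying above held the motif. p53 binds pairs of such motifs as a tetramer. A pair at most 13 bases apart, with no mismatch allowed, was in 0.0731% of all windows and in 1 target window, at the upstream start of Cdkn1a. It is shown as the promoter of the best known p53 target, whose level was not lower in the p53-ko mice: the 100 bases before that start (GRCm38.p6 chr17:29090879-29090978, plus strand, 5′ to 3′), with both motifs in capitals, the first beginning 73 bases before the start and the second 12 bases after the end of the first. The 10 bases right after the second motif miss the pattern only at their first base and stay in small letters. The capitals therefore mark exact matches of the pattern, and which pair p53 binds was not tested.
Cdkn1a: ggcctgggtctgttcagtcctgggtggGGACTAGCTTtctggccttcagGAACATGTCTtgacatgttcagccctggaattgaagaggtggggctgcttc

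The regulators of p53 were mixed, 4 of 24 above and 6 below in both p53-ko mice, beside 15.1% and 15.8% of all genes. The 6 below include Trp53 itself, and the 4 above include Cdkn2a. Of the 24, 0 were called by edgeR, 2 by DESeq2 (Trp53 and Cdkn2a) and 2 had an unadjusted p under 0.05. The checkpoint kinases lay below: Atm was at 171 and 212 CPM in the p53-wt mice and 83.8 and 161 CPM in the p53-ko mice (log2 fold change -0.64 ± 0.31). Atr was at 128 and 137 CPM in the p53-wt mice and 72.1 and 81.5 CPM in the p53-ko mice (-0.79 ± 0.36). Mdm4, the inhibitor that partners Mdm2, had -0.35 ± 0.31. The Bcl2 family, which sets the threshold of mitochondrial cell death, had 2 of 17 (11.8%) above and 3 (17.6%) below, near the shares of all genes. edgeR and DESeq2 each called 0 of the family, and 1 had an unadjusted p under 0.05. Bcl2l2, a pro-survival member, was at 7.86 and 10.1 CPM in the p53-wt mice and 5.54 and 4.47 CPM in the p53-ko mice (-0.84 ± 0.38). Bak1, the pro-death effector, which overlaps Ggnbp1 on the opposite strand, was at 76 and 76.9 CPM in the p53-wt mice and 82.1 and 104 CPM in the p53-ko mice. Of 32 DNA damage response genes 3 (9.38%) lay above and 5 (15.6%) below, no more than the shares of all genes (0 called by edgeR and by DESeq2, 2 at an unadjusted p under 0.05). Clspn, the adaptor that activates Chk1 at stalled forks, was at 132 and 139 CPM in the p53-wt mice and 257 and 222 CPM in the p53-ko mice (0.82 ± 0.23).

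Cell cycle genes lay slightly higher in the p53-ko mice, none of them called. Of 47 tested, 46 had a log2 fold change above 0, beside 9179 of 17470 over all genes, and 23 (48.9%) lay above in both p53-ko mice with 0 below, beside 15.1% and 15.8%. The median was 0.27 (deltaPOZ 0.26); leaving out 1 mouse gave 0.11 to 0.31, lowest without p53-ko mouse 2. edgeR and DESeq2 each called 0, and 2 had an unadjusted p under 0.05. The mean log2 CPM of the list was 7.21 to 7.36 in all 6 p53-wt mice and 7.39 to 7.68 in all 10 p53-ko mice. On the summed level that order was lost: the 6 p53-wt mice held 13108 to 15345 CPM, the 4 p53-ko mice without ICN 13036 to 14783 CPM and the 4 deltaPOZ p53-ko mice 15284 to 17918 CPM, while the p53-ko mice of this comparison held 16712 and 17649 CPM. By phase, 8 of 23 G1 and S phase genes and 15 of 24 mitotic genes lay above. Cdt1, which loads the replicative helicase, was at 51.2 and 50.9 CPM in the p53-wt mice and 85.4 and 78.7 CPM in the p53-ko mice (log2 fold change 0.69 ± 0.23, deltaPOZ 0.10). E2f2, an S phase transcription factor, was at 237 and 456 CPM in the p53-wt mice and 756 and 494 CPM in the p53-ko mice (0.85 ± 0.37). Cdc6, the partner of Cdt1 in licensing, was at 59.5 and 113 CPM in the p53-wt mice and 118 and 162 CPM in the p53-ko mice. Cdc20, an activator of the anaphase-promoting complex, was at 209 and 165 CPM in the p53-wt mice and 247 and 239.9 CPM in the p53-ko mice (0.38 ± 0.23). It overlaps Elovl1 on the opposite strand.

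MYC and ribosome biogenesis genes did not separate the genotypes beyond the share of all genes: 0 of 20 lay above and 3 (15%) below in both p53-ko mice, beside 15.1% and 15.8%, with 0 called by edgeR and by DESeq2 and 1 at an unadjusted p under 0.05. The median of -0.28 (deltaPOZ 0.00) was -0.83 without p53-ko mouse 2 and turned to 0.08 without p53-ko mouse 1. Wdr12, a factor of large subunit maturation that overlaps Carf on the opposite strand, was at 204 and 165 CPM in the p53-wt mice and 128 and 110.2 CPM in the p53-ko mice (log2 fold change -0.63 ± 0.21). Ncl, which encodes nucleolin, was at 1143 and 1128 CPM in the p53-wt mice and 773 and 807 CPM in the p53-ko mice.

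**Figure D4:**
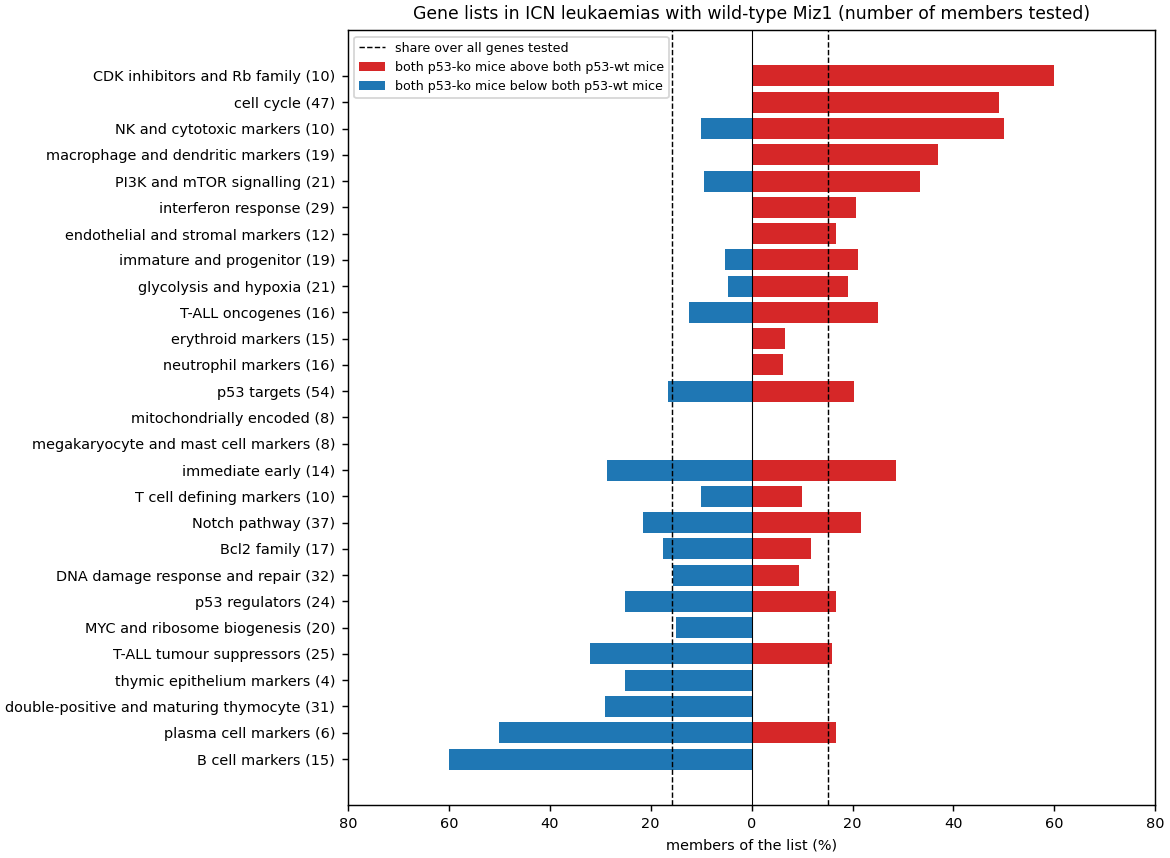
Share of each gene list (%, members tested in brackets) with both p53-ko mice above (red, to the right) or below (blue, to the left) both p53-wt mice, in ICN leukaemias with wild-type Miz1; dashed lines mark 15.1% above and 15.8% below over all genes. CDK inhibitor and Rb family genes (60.0% above), NK markers and cell cycle genes reach furthest to the right and B cell (60.0% below) and plasma cell markers furthest to the left.

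Sox11, a SoxC transcription factor with little RNA in normal lymphocytes, showed the largest difference of any gene described here. It was at 0.0194 and 0.0183 CPM in the p53-wt mice and 6.15 and 11.4 CPM in the p53-ko mice, 2 against 792 counts, a ratio of 488 (95% counting interval 135 to 4034). The interval covers counting error only. The log2 fold change of 8.68 ± 1.15 did not pass (edgeR adjusted p = 0.0856), while DESeq2 (9.7e-08) and limma-voom (0.0273) called it. Sox11 passed the filter on low counts only through the p53-ko mice in which it was high, so its p-values are a description. In the other 12 libraries, p53 ko or not, it stayed at or below 0.136 CPM, and the deltaPOZ contrast was -1.98 ± 0.85. The difference between both contrasts was 10.66 ± 1.39 (adjusted p = 0.143, DESeq2 3.27e-06). Of the 16 T-ALL oncogenes tested, Sox11 included, 4 (25%) lay above and 2 (12.5%) below, beside 15.1% and 15.8% of all genes. Among them 0 were called by edgeR, 1 by DESeq2 (Sox11) and 4 had an unadjusted p under 0.05. Hoxa9, a homeobox leukaemia gene, was at 0.116 and 0.147 CPM in the p53-wt mice and 2.49 and 0.318 CPM in the p53-ko mice, high in p53-ko mouse 1. Myb, a haematopoietic transcription factor, was at 879 and 669 CPM in the p53-wt mice and 408 and 584 CPM in the p53-ko mice (log2 fold change -0.64 ± 0.26).

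No protein-coding gene at a mean log2 CPM of at least 0 passed in edgeR, so the 10 with the lowest p in each direction are described as not passing there (adjusted p 0.128 to 0.750). DESeq2 called all 20 (adjusted p 2.98e-11 to 0.0491). After Cdkn2a, the next 9 among genes higher in p53 ko were S100a4, Serpinb8, Fcgr4, Ctss, Plag1, Rap1gap2, Mpeg1, Fjx1 and Cd300c2. S100a4, a calcium-binding protein of motile cells, was at 3.34 and 2.25 CPM in the p53-wt mice and 16.6 and 15.7 CPM in the p53-ko mice (log2 fold change 2.53 ± 0.51, deltaPOZ 1.92 ± 0.35). The deltaPOZ p53-ko mice held 19.2 and 22.6 CPM with the suffix Lck and 3.44 and 7.33 CPM with Vav. The 4 p53-ko mice without ICN held 1.01 to 2.5 CPM, beside 1.99 to 3.91 CPM in all 6 p53-wt mice. Serpinb8, a protease inhibitor, was at 0.349 and 0.0733 CPM in the p53-wt mice and 1.4 and 19.2 CPM in the p53-ko mice, high in p53-ko mouse 2 alone, and the 4 deltaPOZ p53-ko mice held 0.236 to 0.901 CPM. Plag1, a zinc finger oncogene, was at 2.33 and 1.52 CPM in the p53-wt mice and 12.3 and 4.72 CPM in the p53-ko mice. Fjx1 was at 0.737 and 0.366 CPM in the p53-wt mice and 8.72 and 13.1 CPM in the p53-ko mice (log2 fold change 4.3 ± 1.09, deltaPOZ 2.72 ± 0.74). Of the others, 4 are genes of phagocytes and antigen-presenting cells: the Fc receptor Fcgr4 had a log2 fold change of 2.46, cathepsin S (Ctss) 1.51, the pore-forming Mpeg1 1.19 and the myeloid receptor Cd300c2 1.95.

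The 10 with the lowest p among genes lower in p53 ko were Prdm16, Trp53, Mtmr7, Ccdc134, Sigirr, Jchain, Zfp329, Mars2, Zfp322a and Atad1. Prdm16, a transcription factor of haematopoietic stem cells, was at 6.17 and 14.1 CPM in the p53-wt mice and 0.559 and 0.119 CPM in the p53-ko mice (log2 fold change -4.92 ± 0.88, adjusted p = 0.406). The deltaPOZ mice differed by suffix. With Vav, Prdm16 was at 21.9 and 31.9 CPM in p53 wt and 1.2 and 0.334 CPM in p53 ko. With Lck it was not lower in p53 ko, at 0.355 and 0.158 CPM in p53 wt and 0.586 and 0.666 CPM in p53 ko. Mtmr7, a myotubularin lipid phosphatase, was at 6.54 and 9.91 CPM in the p53-wt mice and 0.252 and 0.893 CPM in the p53-ko mice (log2 fold change -3.82 ± 0.88). Prdm16 overlaps B230104I21Rik and Mtmr7 overlaps Vps37a on the opposite strand. Sigirr, an inhibitory receptor of the interleukin-1 family, was at 28.9 and 23.2 CPM in the p53-wt mice and 10.5 and 13.5 CPM in the p53-ko mice. Ccdc134 was at 52.8 and 137 CPM in the p53-wt mice and 31.1 and 32 CPM in the p53-ko mice. Another 4 differed by less at a narrow spread: the zinc finger genes Zfp329 and Zfp322a had log2 fold changes of -0.91 ± 0.23 and -0.86 ± 0.22, the mitochondrial methionyl-tRNA synthetase Mars2 -0.79 ± 0.20 and the mitochondrial ATPase Atad1 -0.66 ± 0.18.

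Notch1 did not separate the genotypes, at 802 and 961 CPM in the p53-wt mice and 839.6 and 856 CPM in the p53-ko mice, nor did Zbtb17, which encodes Miz1 and overlaps Spen on the opposite strand, at 51.8 and 42.9 CPM in the p53-wt mice and 50.5 and 48.5 CPM in the p53-ko mice. Of 37 Notch pathway genes 8 lay above and 8 below (21.6% each), beside 15.1% and 15.8% of all genes. Their median was -0.03, with 0 called by edgeR, 1 by DESeq2 (Cr2) and 4 at an unadjusted p under 0.05. Among its 19 targets 3 lay above and 6 below. Hey1, a Notch-driven repressor, was at 29.7 and 71.9 CPM in the p53-wt mice and 4.05 and 7.28 CPM in the p53-ko mice (log2 fold change -3.16 ± 1.12, adjusted p = 0.762; deltaPOZ -2.80 ± 0.78). Its levels spread widely within a genotype, from 14.6 to 118 CPM in the 4 deltaPOZ p53-wt mice. Igf1r, the insulin-like growth factor receptor that Notch drives in T-ALL, was at 4.93 and 3.5 CPM in the p53-wt mice and 23.1 and 6.19 CPM in the p53-ko mice (1.80 ± 0.74). Maml3, a Mastermind coactivator, was at 3.88 and 5.95 CPM in the p53-wt mice and 15.4 and 8.47 CPM in the p53-ko mice (1.28 ± 0.45, deltaPOZ -0.71 ± 0.31). Cr2, the complement receptor of mature B cells, was at 3.01 and 1.3 CPM in the p53-wt mice and 0.419 and 0.0198 CPM in the p53-ko mice, in the order of the B cell markers.

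Genes of double-positive and maturing thymocytes lay lower or mixed: of 31, 0 lay above and 9 (29.0%) below in both p53-ko mice, beside 15.1% and 15.8% of all genes. The median was -0.18 (deltaPOZ -0.16), and -0.55 to -0.13 with 1 mouse left out, lowest without p53-ko mouse 2. edgeR and DESeq2 each called 0 of them, and 1 had an unadjusted p under 0.05. Cd5, a marker of T cell receptor signal strength, was at 114 and 96.1 CPM in the p53-wt mice and 32.9 and 46.3 CPM in the p53-ko mice (log2 fold change -1.40 ± 0.53). Satb1, a chromatin organiser of thymocytes, was at 1281 and 1003 CPM in the p53-wt mice and 496 and 767 CPM in the p53-ko mice. Bcl11b, the T lineage commitment factor and a T-ALL tumour suppressor, was at 364 and 385 CPM in the p53-wt mice and 189.7 and 267 CPM in the p53-ko mice (deltaPOZ 0.08). Cd6 had a log2 fold change of -0.77 ± 0.38. The receptor-induced factors Egr2 and Egr3 were lower too: Egr2 was at 10.8 and 15.3 CPM in the p53-wt mice and 2.8 and 3.35 CPM in the p53-ko mice (-2.08 ± 0.75, deltaPOZ -1.75 ± 0.53). Egr3 was at 0.757 and 0.586 CPM in the p53-wt mice and 0.112 and 0.198 CPM in the p53-ko mice. The stress factor Atf3 lay the other way, at 0.252 and 0.44 CPM in the p53-wt mice and 0.979 and 1.89 CPM in the p53-ko mice. The immediate early list as a whole had 4 of 14 above and 4 below (28.6% each), with 0 called by edgeR and by DESeq2 and 4 at an unadjusted p under 0.05.

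B cell markers had the lowest median of the 27 lists. All 15 B cell markers had log2 fold changes below 0, and the median was -2.36 (deltaPOZ -0.09). In both p53-ko mice 9 (60.0%) lay below and 0 above, beside 15.8% and 15.1% of all genes. Of the 15, 0 were called by edgeR, 1 by DESeq2 (Igkc) and 9 had an unadjusted p under 0.05. Igkc, the kappa light chain constant region, was at 168 and 32.7 CPM in the p53-wt mice and 6.21 and 3.55 CPM in the p53-ko mice (log2 fold change -4.37 ± 1.16). Ighm, the IgM heavy chain, was at 949.9 and 339 CPM in the p53-wt mice and 164 and 225 CPM in the p53-ko mice. Pax5, the B lineage factor, was at 2.5 and 0.568 CPM in the p53-wt mice and 0.363 and 0.0198 CPM in the p53-ko mice. p53-wt mouse 1 was the highest of the 4 for each of these. Of 165 immunoglobulin gene segments tested, 145 (87.9%) lay below and 0 above, with a median of -4.43 (deltaPOZ 0.37), 0 called by edgeR, 47 by DESeq2 and 126 at an unadjusted p under 0.05. The summed level of the 240 segments in the files was 1758 and 493 CPM in the p53-wt mice and 197 and 237 CPM in the p53-ko mice. Of 6 plasma cell markers 1 (Sdc1) lay above and 3 below, with 0 called by edgeR, 2 by DESeq2 (Jchain and Mzb1) and 2 at an unadjusted p under 0.05. Their log2 fold changes were above 0 for 3 and below for 3, and the median of -0.58 was 0.03 in a fit of the 4 libraries alone. Jchain, the joining chain of secreted antibodies, was at 125 and 29 CPM in the p53-wt mice and 4.36 and 1.77 CPM in the p53-ko mice (-4.66 ± 1.16). Mzb1 was at 20.3 and 15.5 CPM in the p53-wt mice and 5.34 and 5.08 CPM in the p53-ko mice (-1.78 ± 0.57). Without p53-wt mouse 1 the B cell median was -0.96, and without p53-ko mouse 1 it was -4.28. In bulk RNA fewer B cells and less B cell RNA per cell cannot be told apart. The deltaPOZ p53-ko leukaemias held Jchain at 32.6 to 147 CPM, and the difference between both contrasts for Jchain was -4.54 (adjusted p = 1.0 in edgeR).

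Markers of macrophages and dendritic cells lay on the other side: 18 of 19 had log2 fold changes above 0. In both p53-ko mice 7 (36.8%) lay above and 0 below, beside 15.1% and 15.8% of all genes. The median was 0.92 (deltaPOZ 0.82), and 0.37 to 1.25 with 1 mouse left out, lowest without p53-ko mouse 2. edgeR called 0, DESeq2 called 1 (Itgax) and 7 had an unadjusted p under 0.05. Their summed level over 21 markers was 208 and 274 CPM in the p53-wt mice and 439 and 462 CPM in the p53-ko mice. In deltaPOZ mice with the suffix Lck it was 293 and 177 CPM with p53 wt and 1677 and 1235 CPM with p53 ko. With the suffix Vav the genotypes overlapped, at 340 and 367 CPM with p53 wt and 289 and 374 CPM with p53 ko. Itgax, which encodes CD11c, was at 4.74 and 3.81 CPM in the p53-wt mice and 21.3 and 11 CPM in the p53-ko mice (log2 fold change 1.92 ± 0.49). Csf1r, the macrophage growth factor receptor, which overlaps Hmgxb3 on the opposite strand, was at 23.7 and 39.2 CPM in the p53-wt mice and 52.2 and 68.4 CPM in the p53-ko mice (0.94 ± 0.30), and the Fc receptor Fcgr1 had 1.58 ± 0.52. Cd14 was at 1.59 and 1.37 CPM in the p53-wt mice and 17.1 and 2.18 CPM in the p53-ko mice. These markers were higher in the same mice as Fcgr4, Ctss, Mpeg1, Cd300c2, Casp1 and S100a4, and their part in those differences was not tested.

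Neutrophil markers differed widely between the mice of each genotype. Their summed level over 16 markers was 964 and 60.2 CPM in the p53-wt mice and 4162 and 61.5 CPM in the p53-ko mice, so that mouse 1 of each genotype was high and mouse 2 low. The median log2 fold change of 2.02 became -3.18 without p53-ko mouse 1 and 4.83 without p53-wt mouse 1. In both p53-ko mice 1 of 16 (6.25%) lay above and 0 below, beside 15.1% and 15.8% of all genes (0 called by edgeR and by DESeq2, 3 at an unadjusted p under 0.05). That 1 was Csf3r, the G-CSF receptor, at 2.1 and 1.19 CPM in the p53-wt mice and 18.1 and 3.24 CPM in the p53-ko mice. Of 10 NK and cytotoxic markers 5 (50%) lay above and 1 (10%) below, beside the same shares of all genes. Their median was 1.49 (0.56 to 1.75 with 1 mouse left out, lowest without p53-ko mouse 2), with 0 called by edgeR, 1 by DESeq2 (Klrb1c) and 3 at an unadjusted p under 0.05. Klrb1c, which encodes NK1.1, went against the rest, at 123 and 89.1 CPM in the p53-wt mice and 12 and 18 CPM in the p53-ko mice (log2 fold change -2.82 ± 0.79, deltaPOZ -2.63 ± 0.55, adjusted p 0.75 and 0.152). Tyrobp, an adaptor of NK and myeloid cells, was at 8.48 and 5.9 CPM in the p53-wt mice and 42.3 and 12.1 CPM in the p53-ko mice. Granzyme A (Gzma) was at 140.1 and 53.6 CPM in the p53-wt mice and 330.5 and 214 CPM in the p53-ko mice.

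Interferon response genes were high in p53-ko mouse 2. Of 29, 6 (20.7%) lay above and 0 below in both p53-ko mice, beside 15.1% and 15.8% of all genes. The median of 0.57 became -0.02 without p53-ko mouse 2 and 1.01 without p53-ko mouse 1 (0 called by edgeR and by DESeq2, 1 at an unadjusted p under 0.05). Gbp2, an interferon-induced GTPase, was at 38.5 and 37 CPM in the p53-wt mice and 39.3 and 214 CPM in the p53-ko mice. Iigp1, another such GTPase, was at 24.5 and 10.8 CPM in the p53-wt mice and 30.9 and 97.5 CPM in the p53-ko mice. Irf1, which overlaps Gm17334 on the opposite strand, was at 98.6 and 113 CPM in the p53-wt mice and 125 and 226 CPM in the p53-ko mice. Of 12 endothelial and stromal markers 2 lay above and 0 below (0 called by edgeR, 1 by DESeq2, 1 at an unadjusted p under 0.05). The 1 that DESeq2 called was Pdgfrb, the platelet-derived growth factor receptor, at 2.68 and 1.59 CPM in the p53-wt mice and 22.3 and 30.6 CPM in the p53-ko mice (log2 fold change 3.63 ± 1.02).

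**Figure D5:**
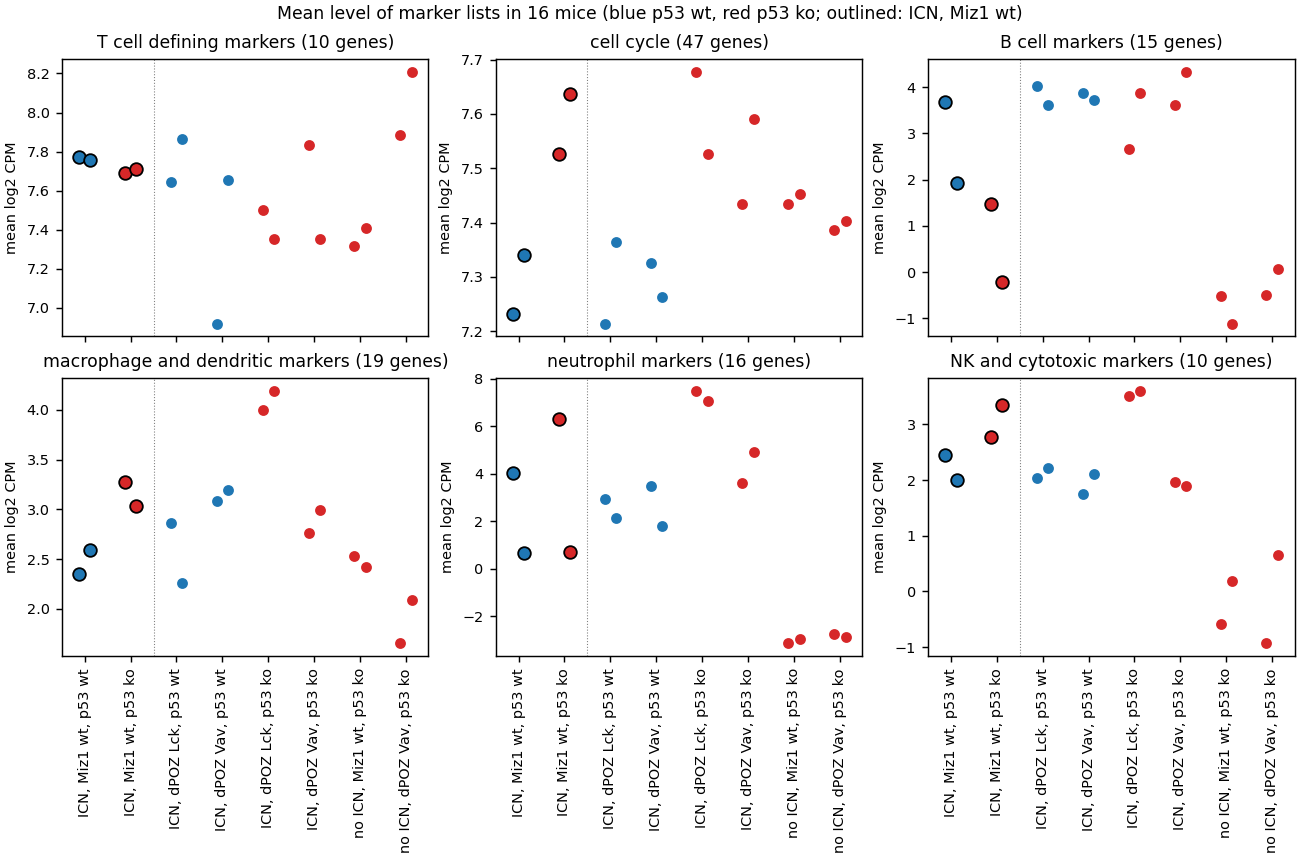
Mean log2 CPM of 6 marker lists in all 16 mice, 1 point per mouse; the outlined points at the left are the ICN leukaemias with wild-type Miz1, and each panel has its own axis. T cell markers lie close together in those 4 mice, cell cycle and macrophage markers are higher and B cell markers lower in both p53-ko mice, and neutrophil markers are high in mouse 1 of each genotype.

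Set beside the deltaPOZ leukaemias, which share no library with this comparison but 1 estimate of spread per gene, the fold changes over 17470 genes had a Pearson correlation of 0.212 and a Spearman correlation of 0.389, a description across genes. Of the 964 genes at an unadjusted p under 0.05 in Miz1 wt, 782 (81.1%) had the same sign in deltaPOZ, beside 67.5% of all genes, and 91 of the 182 with opposite signs were immunoglobulin segments. Sox11, which passed the filter on low counts only through the Miz1 wt p53-ko mice, had the lowest p for the difference. Among protein-coding genes with a mean log2 CPM of at least 0 over the 12 ICN libraries, which leaves out Sox11, the lowest p for the difference, all short of the threshold in edgeR, were those of Mtmr7, Ldhb, Etv6, Gjc1, Lrp12 and P3h4. Mtmr7 had log2 fold changes of -3.82 in Miz1 wt and 1.38 in deltaPOZ, a difference of -5.20 ± 1.05. That deltaPOZ value averages opposite directions. With the suffix Lck, Mtmr7 was lower in p53 ko, as in Miz1 wt (7.77 and 7.34 CPM against 0.293 and 0.848 CPM). With the suffix Vav, Mtmr7 was higher in p53 ko (0.0764 and 0.171 CPM against 13.3 and 9.23 CPM). Etv6, a repressor lost in some T-ALL, had 0.61 and -0.98, a difference of 1.58 ± 0.39. Ldhb, the lactate dehydrogenase B subunit, Lrp12 and P3h4 had -0.24, -0.21 and -0.30 in Miz1 wt and 2.03, 3.24 and 2.26 in deltaPOZ. Each of these differences had an adjusted p of 1.0 in edgeR, and DESeq2 called those of Mtmr7, Ldhb, Gjc1 and Lrp12.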

How the data were processed

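RNA sequencing was compared in 16 mice in 8 groups of 2, grouped by the labelled Miz1, p53 and ICN status and the title suffix; the numbers of mice are by accession and carry no pairing. The labels name separate mice, so the spread is between mice. The deposited values are raw counts of 41214 genes per mouse. Alignment and counting used TopHat2 2.0.10, SAMtools and HTSeq, with DESeq and the build mm10 (GRCm38) also listed, per the submitters' processing notes. Neither the annotation release nor the strand setting is given in the sources used here, so genes that overlap on opposite strands may share reads. The 5 totals naming no gene (not unique, 45.8% to 63.7% of a library) were left out. The 16 libraries held 36463524 to 68523196 gene counts; intervals cover counting error only.

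Names and coordinates came from GENCODE M21 (40340 of 41214 identifiers). Counts were fitted with edgeR 4.0.16 in R 4.3.3 (TMM, filterByExpr, 17470 genes, 8 groups, 8 residual degrees of freedom, quasi-likelihood F test, Benjamini-Hochberg over all genes, threshold 0.05). The standard error is the fold change divided by the square root of F. Contrasts were p53 ko against wt in ICN Miz1 wt (2 against 2), in ICN deltaPOZ (mean of Lck and Vav, 4 against 4) and their difference. Alternatives were DESeq2 1.42.0, limma-voom (limma 3.58.1), RLE scaling, no filter, fewer libraries in the fit, and leaving out each mouse. The fit was tested on simulated counts with a smaller spread between mice (dispersion) than the common value of 0.208 estimated here. That simulation does not show how well the fit finds genes at the real spread. Gene lists numbered 27 (516 genes, 1 of them unmatched) and were given as counts and medians, with no set test.

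The comparison, lists and rules were chosen with earlier results of these data known. Named were: genes passing the test, or failing that up to 10 per direction with the lowest p among protein-coding genes with a mean log2 CPM of at least 0, non-overlapping genotypes and no receptor segment, Y-linked gene or Xist; members of the p53 regulator, p53 target, CDK inhibitor and Bcl2 lists that did not overlap; up to 4 members with the lowest p of each other list; Trp53, Zbtb17, Notch1 and Cdkn1a; and up to 6 genes with the lowest p of the difference. Not all genes the rule allows are printed.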

Additional observations from a re-analysis of the deposited data

Results flagged for a closer look

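The 4 p53-ko leukaemias without ICN entered none of the contrasts, though they shared in the estimate of spread and some of their levels are given above. The 5 features that rose in the deltaPOZ leukaemias were all higher in these 4 than in any of the 6 p53-wt libraries. The lowest of the 4 held 38.9 CPM of Cdkn2a (p53-wt highest 1.53), 13 CPM of Eif5al3-ps (0.306), 2.13 CPM of Gm6685 (0.385), 1.03 CPM of Hmgb1-ps3 (0.854) and 0.55 CPM of Gm12070 (0.458). Cdkn2a and Eif5al3-ps were thus high without p53 whether or not ICN was present.

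Gjc1, which encodes the gap junction protein connexin 45, lay in opposite directions in the Miz1 wt and deltaPOZ leukaemias in every mouse compared. It was at 2.17 and 1.41 CPM in the p53-wt and 5.79 and 4.68 CPM in the p53-ko mice with Miz1 wt (log2 fold change 1.55 ± 0.75), and at 2.52 to 12.1 CPM in the 4 p53-wt and 0.48 to 1.98 CPM in the 4 p53-ko mice with deltaPOZ (-2.17 ± 0.54). The difference of 3.72 ± 0.94 did not pass in edgeR (adjusted p = 1.0) and did in DESeq2 (0.0296).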

How the results depend on the processing

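The number of genes called in Miz1 wt was 1, and it was 137 with DESeq2 (63 higher, 74 lower), 601 with no filter on low counts, 2 with the 12 ICN libraries, 0 with the 4 compared libraries alone, 2 with limma-voom (Eif5al3-ps and Sox11) and 0 to 1 when 1 mouse was left out (0 without p53-wt mouse 1 or 2). RLE scaling left 1. For deltaPOZ the count of 6 became 527, 1109 and 13 with DESeq2, no filter and the 12 ICN libraries, and 1 to 9 when 1 mouse was left out. The difference went from 0 to 29 with DESeq2 and 378 with no filter, and stayed at 0 under RLE scaling, the 12 ICN libraries and each left-out mouse. The cause was not tested. edgeR called 0 genes within 1, 5 and 10 Mb of Trp53 (6, 7 and 16 had p under 0.05 before adjustment). DESeq2 called 1, 2 and 4 there. Of 1118 values of single genes under alternatives, 998 kept direction and side of the threshold, 75 passed in addition, 35 no longer passed and 10 changed sign when 1 mouse was left out, in 9 genes of the Miz1 wt contrast (Mdm2 under 2 settings): Cd3e -0.062 to 0.27, Zbtb17 -0.098 to 0.16, Notch1 -0.22 to 0.048, Ldhb -0.67 to 0.046, Lrp12 -0.62 to 0.059, Eif5a -0.30 to 0.17, Cyb5d1 -0.14 to 0.32, Mdm2 -0.0399 to 0.0946 and Bax -1.05 to 0.022 (log2 fold change, range over left-out mice). These values cover the deltaPOZ contrast only for its 6 called genes. Of 95 single-gene deltaPOZ log2 fold changes, 14 changed sign when 1 mouse was left out, among them Cdkn1a (-0.22 to 0.50), Cdt1 (-0.045 to 0.21) and Bcl11b (-0.057 to 0.24). Of 270 list medians under alternatives, 44 moved by more than the spread between mice. No paired analysis was possible because the replicate numbers follow accession order and the labels pair no mice. Genes with few counts, such as Sox11 with 2 counts in p53 wt, have wide intervals.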
